A study of Mus musculus with 15 samples.

Results

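Tissue-type plasminogen activator (Plat) and 6 genes that act around it were followed in 15 bulk RNA-seq libraries of mouse thalamus. The 7 genes, out of 29659 measured, were listed by name: the activators Plat and Plau, the surface receptors Plaur, Anxa2 and S100a10, and the serpin inhibitors Serpine2 and Serpini1. The set was selected on the level of Plat, which had one of the stronger differences in 5ELKO against ELKO mice, so that comparison is described here without a test. All mice were 4.5 months old and, by genotype, carried human APOE4 in place of the mouse gene (APOE4+/+), which the mouse Apoe level of 1 ELKO library goes against. EL mice (n = 3) had intact Lilrb4a, ELKO mice (n = 3) lacked it (Lilrb4a-/-), and 5EL (n = 5) and 5ELKO (n = 4) mice were the same genotypes with the 5xFAD transgenes. Each library is a separately labelled sample.

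The 5xFAD transgenes are driven by the neuronal Thy1 promoter and lead to amyloid plaques. The whole dissected thalamus was sequenced, and the labels give no sex, while the study's methods state males except where both sexes are shown; Xist, expressed in female cells, was at most 0.31 in every library.

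Plasminogen activators are serine proteases that cut plasminogen into plasmin, which dissolves fibrin and also degrades matrix proteins and aggregated amyloid-β. In brain, Plat is made by neurons, glia and vessels, and its enzyme is known both for clearing clots and for acting at synapses. Serpine2 (protease nexin-1) and Serpini1 (neuroserpin) are the inhibitors made in brain tissue, Plaur holds the urokinase encoded by Plau at the cell surface, and Anxa2 and S100a10 form a complex that binds Plat and plasminogen.

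The libraries carry deposited log2 values, which ran from -2.27 to 18.98 and give no read counts, so the reads behind a single value are unknown. The study's supplement lists total reads and RNA integrity for 5EL and 5ELKO libraries, a 5ELKO library beyond those here among them, and none for EL or ELKO. RNA integrity there tended to be lower in 5ELKO than in 5EL, with overlap. Its part in the 5ELKO against 5EL differences was not tested. All 7 genes were at or above 3.32 (10 on the linear scale) in 15 of 15 libraries. The tissue labels were checked on marker lists, and 5 of 5 thalamic neuron markers were above that level in every library. Several libraries stood apart: 5EL replicate 1, ELKO replicate 2, ELKO replicate 1 and EL replicate 1 form the 4 left out together in one alternative. Choroid plexus markers averaged 9.17 in 5EL replicate 1 and 9.62 in ELKO replicate 2, against 5.93 to 6.98 in the other 13 libraries. Mouse Apoe was at 10.9 in ELKO replicate 1 and at most 6.37 elsewhere, which goes against the label of that library. Hepatocyte markers averaged 6.59 in EL replicate 1 and at most 5.73 in the other EL libraries. By this score it stood apart only within its group. 5ELKO replicates 1, 3 and 4, which are not among the 4, had 6.58, 6.64 and 6.44. EL replicate 3, which is not among the 4, had the lowest ependymal and habenula scores (6.36 and 6.99) and the highest thalamic neuron score (13.17). Lilrb4a lay at 2.33 in ELKO and 5ELKO and at 2.34 to 2.66 in EL and 5EL. All these values were below 3.32 and well above the lowest deposited value of -2.27. For this deleted gene 5ELKO minus 5EL was -0.20 log2 units, so differences of other low genes, such as Plaur, may be understated on this scale. In bulk tissue, fewer cells of a type and less RNA per cell cannot be told apart.

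Compared per kilobase of exon, the inhibitors were the most abundant members. Serpine2 averaged 9.60 on the log2 scale per kilobase over the 15 libraries, above every library of every other member. Serpini1 followed at 7.72, S100a10 at 7.07, Plat at 6.79 and Anxa2 at 6.23. The ranges over libraries overlapped between Serpini1 (6.98 to 8.02) and S100a10 (6.85 to 7.39), and between S100a10 and Plat (6.60 to 6.98). Within each library, however, Serpini1 lay above S100a10 and S100a10 above Plat. Anxa2 (5.95 to 6.47) lay below Plat in every library. Plau averaged 3.81 and Plaur 2.22 per kilobase, the lowest levels of the list. The spread over libraries was widest for Serpini1, whose deposited values covered 1.04 log2 units, and narrowest for Plaur at 0.28.

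**Figure D1:**
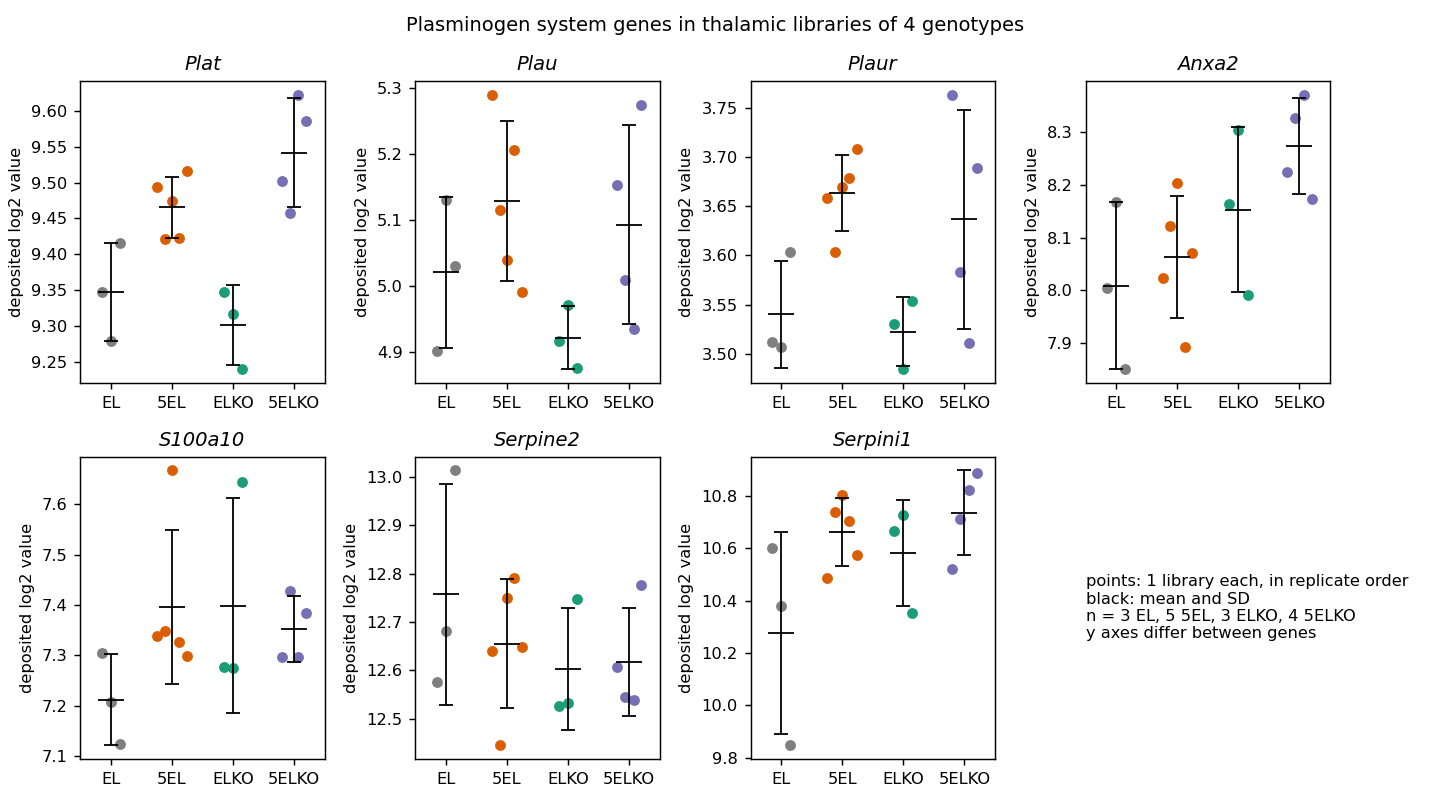
Deposited log2 value (y axis, its own scale for each gene) of the 7 genes in each library of EL, 5EL, ELKO and 5ELKO mice (x axis); points are libraries and black marks are the mean and SD. For Plat the 9 libraries with 5xFAD lie above the 6 without it, a description that holds the comparison that chose Plat. EL replicate 3 is the lowest Serpini1 library at 9.85.

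Plat had its highest values in mice with amyloid, although no difference passed adjustment over all genes. The gene (chromosome 8, 22757727 to 22782844, plus strand; all positions are GRCm38) encodes the activator itself. Its log2 values were 9.35, 9.28 and 9.42 in EL replicates 1 to 3, and 9.49, 9.42, 9.47, 9.42 and 9.52 in 5EL replicates 1 to 5. In ELKO they were 9.35, 9.32 and 9.24, and in 5ELKO 9.50, 9.46, 9.62 and 9.59. The groups stood in the order 5ELKO (9.54 ± 0.075, SD, n = 4), 5EL (9.47 ± 0.042, SD, n = 5), EL (9.35 ± 0.068, SD, n = 3) and ELKO (9.30 ± 0.055, SD, n = 3). Every library with 5xFAD was above every library without it, by a narrow margin. The lowest of these 9 was 9.422 and the highest of the other 6 was 9.416. This separation holds the comparison that chose Plat, so it is given as a description. The share of all genes separated in this way was not counted. The values of 5ELKO overlapped those of 5EL, and those of ELKO overlapped those of EL.

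5EL against EL shares no library with the comparison that led to the choice of Plat and asks what amyloid does with Lilrb4a intact. Its limma standard error and p, however, use a spread estimated from all 15 libraries, so the libraries that chose Plat enter them. Plat was 0.12 log2 units higher in 5EL (standard error 0.05, 95% interval 0.0070 to 0.23), which is 1.09-fold, past the nominal limma threshold of 0.05 but with an adjusted p of 0.630 over 15804 genes (Benjamini-Hochberg). All 5 of the 5EL libraries were above every EL library (exact permutation test, two-sided, p = 0.0179, the smallest this design allows). Groups did not overlap in this direction for 1.68% of all genes tested. The nominal call was lost in 10 of 24 alternatives, among them recentring each library on its median gene and leaving out 5EL replicate 1, 3 or 5 or EL replicate 1 or 2. The difference stayed between 0.084 and 0.15 when any one library was left out, and was 0.11 without the 4 libraries that stand apart.

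In 5ELKO against ELKO, the comparison used to choose it, Plat differed by 0.24 log2 units (standard error 0.05), a 1.18-fold higher level. The value was 0.26 without ELKO replicate 1, the library with mouse Apoe, and between 0.21 and 0.27 in the 15 fits that each dropped one library; groups did not overlap in this direction for 1.78% of all genes. No Plat difference with deletion of Lilrb4a passed the nominal threshold: 5ELKO minus 5EL was 0.08 (95% interval -0.026 to 0.18, limma adjusted p = 0.999) and ELKO minus EL was -0.05 (95% interval -0.17 to 0.078, limma adjusted p = 0.998). These deletion comparisons share 5ELKO or ELKO libraries with the comparison that chose Plat. The Plat amyloid difference was 0.12 log2 units larger without Lilrb4a than with it (standard error 0.075, 95% interval -0.038 to 0.28, which includes 0). This value holds the comparison that chose Plat and is given as a description.

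**Figure D2:**
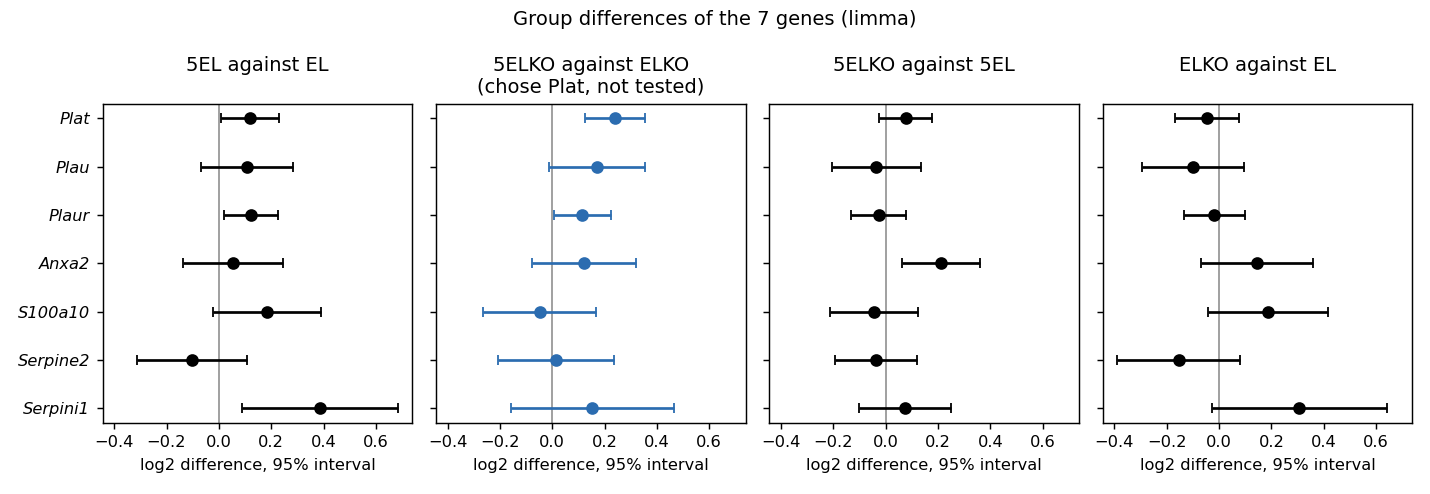
Log2 difference (x axis) with its 95% limma interval for each gene (y axis) in 4 comparisons; 5ELKO against ELKO, in blue, chose Plat and is shown as a description. Plat, Plaur and Serpini1 lie above 0 in 5EL against EL, and Anxa2 lies above 0 in 5ELKO against 5EL.

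Taking the 7 genes together, 6 were higher and 1 lower in 5EL than in EL, with a median difference of 0.12 log2 units against 0.00063 over all genes. Plat, Plaur and Serpini1, 3 of 7, were past the nominal limma threshold, all of them higher, where 7.70% of all genes were called (3.82% higher and 3.88% lower). None passed at an adjusted p under 0.05, and neither did any other gene (0 of 15804, limma). In 5ELKO against ELKO the median of the 7 was likewise 0.12, given as a description only. Beside Plat, the differences there were 0.17 for Plau, 0.15 for Serpini1, 0.12 for Anxa2, 0.11 for Plaur, 0.014 for Serpine2 and -0.047 for S100a10. Those of Serpini1, Anxa2 and S100a10 depended on ELKO replicate 3: without it they were 0.038, 0.040 and 0.076, and without the 4 libraries that stand apart, where it alone remains, 0.38, 0.28 and -0.29. Anxa2 was 0.20 without ELKO replicate 2. The sign of Serpine2 turned without ELKO replicate 1 (-0.024), ELKO replicate 2 (-0.021) or the 4 libraries (-0.13). In 5ELKO against 5EL the median was -0.03, with 3 differences above 0 and 4 below, and 1 of 7 (Anxa2) was past the nominal limma threshold, higher, where 2.49% of all genes were called (1.53% higher and 0.959% lower). At an adjusted limma p under 0.05, 0 of 7 and 0.0191% of all genes passed there. In ELKO against EL the median was -0.02 and 0 of 7 were past the nominal limma threshold, which 2.35% of all genes passed (1.05% higher and 1.30% lower), and 0 of 15804 passed after adjustment; an exact permutation test of 3 against 3 libraries cannot go below 0.1. The amyloid difference without Lilrb4a minus that with it had a 95% interval that included 0 for each of the 7 genes, Plat among them. The widest was that of Serpini1 (-0.67 to 0.20). Without the 4 libraries that stand apart, where ELKO replicate 3 alone stands for its group, it moved from -0.23 to -0.54 for S100a10 (standard error 0.17), from 0.064 to 0.21 for Plau and from 0.067 to 0.22 for Anxa2.

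The second activator, Plau, encodes urokinase and lies on chromosome 14 (20836660 to 20843385, plus strand). Its values were 4.90, 5.13 and 5.03 in EL and 5.29, 5.11, 5.04, 5.21 and 4.99 in 5EL. ELKO libraries had 4.92, 4.97 and 4.88, and 5ELKO libraries had 5.15, 5.01, 4.93 and 5.27. The groups overlapped in every comparison, although the ELKO values were the most tightly grouped. The 5EL minus EL difference was 0.11 (95% interval -0.067 to 0.28, limma adjusted p = 0.667) and the 5ELKO minus 5EL difference was -0.04 (95% interval -0.21 to 0.13, limma adjusted p = 0.999). No Plau difference passed the nominal limma threshold in the comparisons tested.

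Plaur, the urokinase receptor (chromosome 7, 24462484 to 24475968, plus strand), had the clearest link to microglial genes. Its log2 values were 3.51, 3.51 and 3.60 in EL, and 3.66, 3.60, 3.67, 3.68 and 3.71 in 5EL. They were 3.53, 3.48 and 3.55 in ELKO, and 3.76, 3.58, 3.51 and 3.69 in 5ELKO. The 5EL libraries lay above the EL libraries except that 5EL replicate 2 and EL replicate 3 were level, and 5ELKO libraries split into a high pair (replicates 1 and 4) and a low pair. 5EL exceeded EL by 0.12 log2 units (standard error 0.05, limma adjusted p = 0.630; exact permutation test, two-sided, p = 0.0357). The nominal limma call was lost in 4 of 24 alternatives, including those without EL replicate 1 or EL replicate 2 and the one with the replicate number as a block. Deletion differences were -0.03 in 5ELKO against 5EL (95% interval -0.13 to 0.078) and -0.02 in ELKO against EL (95% interval -0.13 to 0.099).

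Genes known to be induced in microglia around plaques moved with Plaur. The score of 10 such genes (Trem2, Cst7, Clec7a and others, mean log2 value) was 6.93 to 6.97 in EL, 7.11 to 7.67 in 5EL, 6.99 to 7.12 in ELKO and 7.06 to 7.74 in 5ELKO, and 10 of 10 were higher in 5EL than in EL at a nominal limma p under 0.05. All 10 were above the filter level in every library. Plaur correlated with this score over the 15 libraries (Pearson r = 0.87, permutation p = 7e-05; Spearman rho = 0.79, permutation p = 0.00093; adjusted p = 0.00212 and 0.0212 over 91 relations). Without the libraries farthest from the Plaur median r was 0.84. Within groups, on deviations from the group means, r was 0.75 but did not pass (permutation adjusted p = 0.217). The low 5ELKO libraries for Plaur, replicates 2 and 3, also had the lowest plaque-associated microglia scores of their group. The part of these genes in the Plaur and Plat differences was not tested. For Plat the same r was 0.67 and Spearman's rho 0.77, given as a description because the libraries that chose Plat are among the 15; on deviations from the group means r was 0.28.

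Anxa2, a phospholipid-binding protein that serves as a Plat and plasminogen receptor, had higher values with Lilrb4a deletion in the amyloid mice, again short of adjustment. The gene is on chromosome 9 (69453620 to 69491795, plus strand), and 2.63% of its exon bases are shared with Gm16144, which counting without strand cannot separate. Values were 8.02, 8.12, 8.20, 7.89 and 8.07 in 5EL, and 8.23, 8.33, 8.37 and 8.17 in 5ELKO. EL libraries had 8.01, 8.17 and 7.85, and ELKO libraries had 8.16, 8.30 and 7.99. In the amyloid mice 3 of 4 5ELKO libraries lay above every 5EL library, and only replicate 4 fell inside the 5EL range. The 5ELKO minus 5EL difference was 0.21 (standard error 0.07, 95% interval 0.062 to 0.36), past the nominal limma threshold, with an adjusted p of 0.999 over 15743 genes (exact permutation test, two-sided, p = 0.0238). The nominal limma call was kept in 18 of 18 alternatives, where the lowest adjusted p was 0.945, and leaving out single libraries gave differences of 0.17 to 0.25. 5EL and EL differed by 0.05 (95% interval -0.14 to 0.24).

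Without amyloid, Anxa2 was 0.14 higher in ELKO than in EL (95% interval -0.068 to 0.36, limma adjusted p = 0.998). No label states a pairing of these groups. When the libraries were paired by replicate number, the ELKO library exceeded its EL partner by 0.16, 0.14 and 0.14. With the pair as a block the nominal limma call was gained by a small margin (limma adjusted p = 0.690), in a fit that called 7.06% of all genes. Leaving out the 4 libraries that stand apart gave -0.019, with ELKO replicate 3 as the single ELKO library.

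Ependymal markers moved with Anxa2. The mean of Foxj1, Ccdc153 and Tmem212, genes of ciliated cells that line the ventricles, was 6.65 to 7.66 in 5EL, 7.11 to 7.73 in 5ELKO, 6.36 to 7.21 in EL and 6.44 to 7.60 in ELKO; 3 of 3 were above the filter level in every library. Over the 15 libraries the correlation was r = 0.84 (permutation p = 7e-05; Spearman rho = 0.79, permutation p = 0.00076; adjusted p = 0.00212 and 0.0212 over 91 relations), and 0.73 without the farthest libraries. On deviations from the group means it was 0.91 (permutation adjusted p = 0.00455). Of the ependymal markers 0 of 3 were past the nominal limma threshold in 5ELKO against 5EL, with a median difference of 0.20. The part of ventricular lining in the Anxa2 difference was not tested.

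S100a10, the small calcium-binding-family partner of Anxa2 (chromosome 3, 93555080 to 93564643, plus strand), did not show the same pattern. Its values were 7.31, 7.21 and 7.12 in EL, 7.34, 7.35, 7.67, 7.33 and 7.30 in 5EL, 7.28, 7.28 and 7.65 in ELKO, and 7.30, 7.43, 7.30 and 7.38 in 5ELKO. A single high library stood out in 5EL (replicate 3) and in ELKO (replicate 3). The difference was 0.18 in 5EL against EL (95% interval -0.023 to 0.39, limma adjusted p = 0.633) and -0.04 in 5ELKO against 5EL (95% interval -0.21 to 0.12, limma adjusted p = 0.999). Without 5EL replicate 3 the first was 0.12, and without ELKO replicate 3 the ELKO minus EL difference fell from 0.19 to 0.064. Across libraries Anxa2 and S100a10 had r = 0.13 (permutation p = 0.660; Spearman rho = 0.029, permutation p = 0.924), and -0.18 without the libraries farthest from the Anxa2 median.

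The sequences before the receptors' start sites are shown because Plaur and Anxa2 were the receptors past the nominal threshold, in different comparisons, and both windows hold the AP-1 motif of the Fos and Jun factors. The RefSeq promoter table (GRCm38.p6) held 4 of the 7 genes. The motif TGANTCA, which reads the same on both strands, is in capitals; it begins 69 bases before the RefSeq start of Plaur and 95 bases before that of Anxa2, and 6.75% of 32851 promoter windows of 250 bases hold it. The GC box (GGGCGG or CCGCCC) occurs 3 times in the Plaur window and 3 times in the full Anxa2 window of 250 bases. The printed Anxa2 part is shorter, at 187 bases, and holds 1 of them. Of all windows, 32.7% hold it. The Serpini1 window is also given and holds neither. It is no contrast for the calls, because Serpini1 was past the nominal threshold in the same comparison as Plaur. The window of the remaining gene, Serpine2, is not shown. The receptor windows are shown partly because they hold the motif, so this choice cannot tie the motif to the calls. A link between the motif and the differences was not tested. The windows are chr7:24462233-24462482 for Plaur, chr9:69453433-69453619 for Anxa2 (ended before the first annotated exon) and chr3:75557243-75557492 for Serpini1, all on the plus strand.
Plaur: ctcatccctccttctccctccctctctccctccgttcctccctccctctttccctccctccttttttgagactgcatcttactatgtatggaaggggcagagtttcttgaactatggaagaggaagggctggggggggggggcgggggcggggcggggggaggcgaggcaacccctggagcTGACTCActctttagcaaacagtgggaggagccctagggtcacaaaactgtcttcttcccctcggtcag
Anxa2: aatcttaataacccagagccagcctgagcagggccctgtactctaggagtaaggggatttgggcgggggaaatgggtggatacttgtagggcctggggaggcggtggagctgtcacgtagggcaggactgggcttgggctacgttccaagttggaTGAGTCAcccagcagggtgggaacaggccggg
Serpini1: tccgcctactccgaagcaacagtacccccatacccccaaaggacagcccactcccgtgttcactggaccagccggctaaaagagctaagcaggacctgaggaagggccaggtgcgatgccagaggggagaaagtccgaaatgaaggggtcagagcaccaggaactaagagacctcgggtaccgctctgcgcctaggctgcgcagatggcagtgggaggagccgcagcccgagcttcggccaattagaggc
A match to these letters is a description of the sequence, and no binding was measured.

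Of the inhibitors, Serpini1 differed most between libraries. Neuroserpin, its product, is made by neurons and is the main brain inhibitor of Plat; the gene is on chromosome 3 (75557547 to 75643495, plus strand). Values were 10.60, 10.38 and 9.85 in EL and 10.49, 10.74, 10.80, 10.71 and 10.58 in 5EL. They were 10.67, 10.73 and 10.35 in ELKO and 10.52, 10.71, 10.82 and 10.89 in 5ELKO. EL replicate 3 was far below all others, and ELKO replicate 3 was the next lowest. 5EL exceeded EL by 0.39 log2 units (standard error 0.14), or 1.31-fold (limma adjusted p = 0.630; exact permutation test, two-sided, p = 0.0536). Without EL replicate 3 the difference was 0.17 and no longer past the nominal limma threshold, so the call rests on that library. Without EL replicate 1 it was 0.55 (limma adjusted p = 0.0769). That fit called 20.2% of all genes at a nominal limma p under 0.05, against 7.70% in the main fit. After adjustment 31 genes passed in it, against 0 in the main fit. Without the 4 libraries that stand apart the difference was 0.59, in a fit that leaves 1 ELKO library.

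Lilrb4a deletion without amyloid gave a Serpini1 difference of 0.31 (95% interval -0.027 to 0.64, limma adjusted p = 0.998). It was higher in ELKO in 3 of 3 same-numbered pairs, by 0.065, 0.35 and 0.51, and passed the nominal limma threshold with the pair as a block (adjusted p = 0.690). In the amyloid mice the 5ELKO minus 5EL difference was 0.07 (95% interval -0.10 to 0.25, limma adjusted p = 0.999). Markers of thalamic relay neurons ran the other way: their mean was 12.83 to 13.17 in EL, 12.50 to 12.82 in 5EL, 12.65 to 12.91 in ELKO and 12.60 to 12.84 in 5ELKO, with 5 of 5 above the filter level in every library. Serpini1 and this mean had r = -0.87 (permutation p = 2e-05; Spearman rho = -0.84, permutation p = 0.00017; adjusted p = 0.00182 and 0.0141 over 91 relations), and -0.74 without the farthest libraries. On deviations from the group means r was -0.82 (permutation adjusted p = 0.0412). Lef1, Prkcd and Rora, 3 of 5 of these markers, were lower in 5EL than in EL at a nominal limma p under 0.05, and Lef1 (-0.38) was lower in ELKO than in EL. Serpini1 also ran with the ependymal mean (r = 0.73, permutation adjusted p = 0.0284; Spearman rho = 0.73, permutation adjusted p = 0.0432), though r was 0.41 without the farthest libraries. This relation did not pass on deviations (r = 0.68, permutation adjusted p = 0.183). The part of dissection or cell makeup in the Serpini1 difference was not tested.

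Serpine2 (chromosome 1, 79794197 to 79861180, minus strand), an inhibitor of Plat, urokinase and thrombin made largely by glia, had no difference past the nominal threshold when libraries were not paired. Values were 12.58, 12.68 and 13.01 in EL, 12.64, 12.45, 12.75, 12.79 and 12.65 in 5EL, 12.53, 12.53 and 12.75 in ELKO, and 12.61, 12.54, 12.54 and 12.78 in 5ELKO. All groups overlapped, and EL replicate 3, lowest for Serpini1, was highest here. The difference was -0.10 in 5EL against EL (95% interval -0.31 to 0.11, limma adjusted p = 0.719) and -0.04 in 5ELKO against 5EL (95% interval -0.20 to 0.12, limma adjusted p = 0.999). In ELKO against EL it was -0.15 (95% interval -0.39 to 0.081), lower in 3 of 3 pairs (-0.050, -0.15 and -0.27), and past the nominal limma threshold under the pair block (adjusted p = 0.690). With Anxa2 and Serpini1 the block thus put 3 of 7 members past the nominal limma threshold in ELKO against EL; the block fit called 7.06% of all genes, against 2.35% without it.

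**Figure D3:**
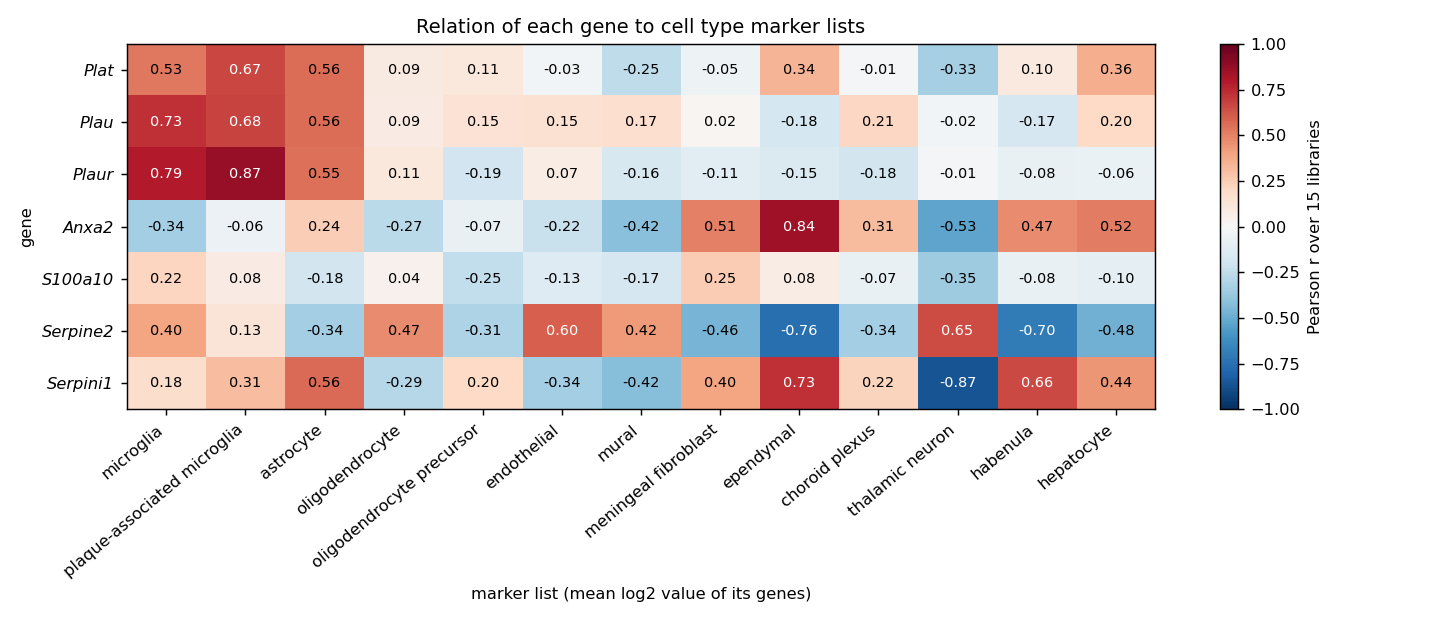
Pearson r over 15 libraries (colour and printed value) between each of the 7 genes (rows) and the mean log2 value of 13 marker lists (columns). The highest values are 0.87 for Plaur with plaque-associated microglia and 0.84 for Anxa2 with ependymal cells, and the lowest is -0.87 for Serpini1 with thalamic neurons.

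**Figure D4:**
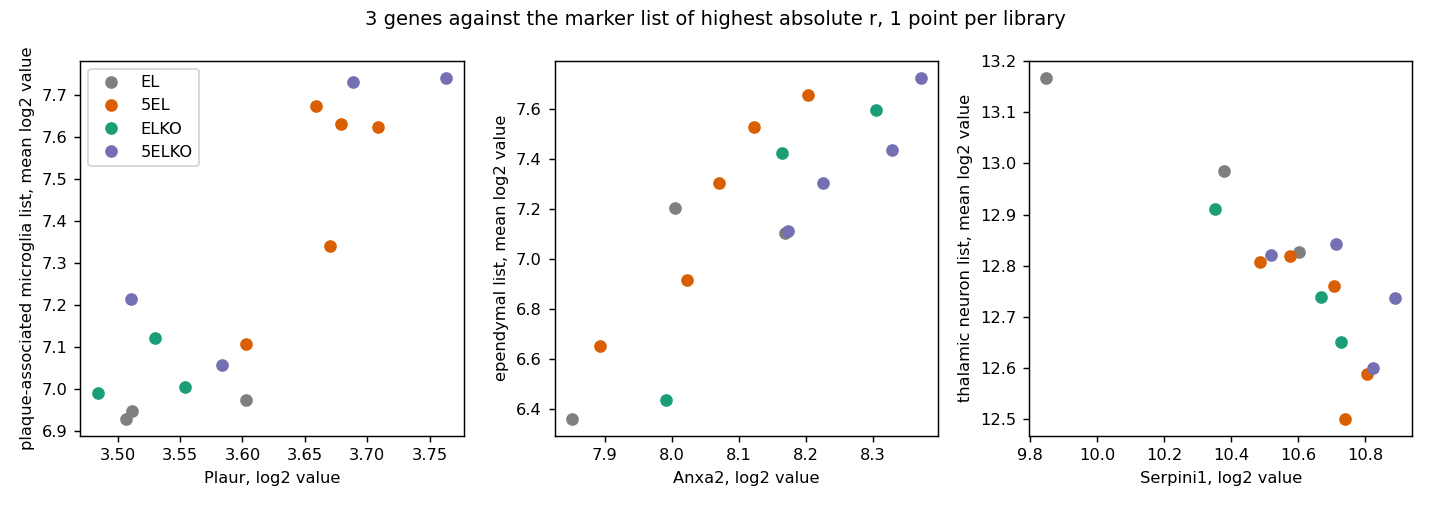
Log2 value of Plaur, Anxa2 and Serpini1 (x axes) against the mean log2 value of a marker list (y axes), 1 point per library coloured by genotype. Plaur and Anxa2 rise with their lists, and Serpini1 falls with the thalamic neuron list, with EL replicate 3 at 9.85 at one end.

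Of 91 relations between the 7 genes and 13 marker lists, 8 passed at a Benjamini-Hochberg adjusted Pearson p under 0.05 by permutation, and 4 on deviations from the group means. Beside those given above, the microglia list passed with Plaur (r = 0.79, permutation adjusted p = 0.0127; Spearman rho = 0.82, permutation adjusted p = 0.0141) and with Plau (r = 0.73, permutation adjusted p = 0.0300; Spearman rho = 0.59, permutation adjusted p = 0.159). Serpine2 ran against the ependymal list (r = -0.76, permutation adjusted p = 0.0166; Spearman rho = -0.67, permutation adjusted p = 0.0808) and the habenula list (r = -0.70, permutation adjusted p = 0.0424; Spearman rho = -0.69, permutation adjusted p = 0.0723). Without the libraries farthest from the gene's median these values of r were 0.80, 0.51, -0.62 and -0.39. On deviations they were 0.63, 0.61, -0.74 and -0.69, and none passed (permutation adjusted p = 0.364, 0.319, 0.165 and 0.183). The microglia list did pass on deviations with Anxa2 (r = -0.70) and Serpine2 (r = 0.65), each with a permutation adjusted p of 0.0412. Over the 15 libraries those r were -0.34 and 0.40 and did not pass (permutation adjusted p = 0.527 and 0.424). The libraries share a dissection and a normalization, so these relations are across tissue samples and not within cells. Of 5 pairs among the members, 0 passed after adjustment by permutation. Plau and Plaur, enzyme and receptor, were the closest (r = 0.61, permutation p = 0.0176, adjusted p = 0.0879; Spearman rho = 0.57, permutation p = 0.0288), with r = 0.56 without the farthest libraries and 0.36 on deviations. Plat and its inhibitor Serpine2 had r = -0.012 (permutation p = 0.968; Spearman rho = 0.082, permutation p = 0.774). Plat and Serpini1 had r = 0.39 (permutation p = 0.154; Spearman rho = 0.47, permutation p = 0.0800), and Plat and Anxa2 r = 0.30 (permutation p = 0.272; Spearman rho = 0.36, permutation p = 0.187). Without the farthest libraries these 3 values were 0.24, 0.23 and -0.012.

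Among 15804 genes, those with the pattern most like Plat over the 15 libraries were Ang (r = 0.83), which encodes the ribonuclease angiogenin, Ticam1 (0.82), an adaptor of Toll-like receptors, Mroh5 (0.76), Pknox1 (0.76) and Unc93b1 (0.76), which escorts Toll-like receptors to endosomes. On deviations from the group means Unc93b1 dropped to -0.0094, while Ang stayed at 0.77 and Ticam1 at 0.79. Close to Plaur was C3ar1 (0.93), the complement C3a receptor. Plau was nearest to Pld4 (0.85) and Tlr2 (0.84), genes expressed in microglia. Anxa2 was nearest to Cfap45 (0.89), a cilium protein gene, and Hc (0.88). S100a10 was nearest to Nipsnap3b (0.89) and Resp18 (0.87). Serpine2 was nearest to Gpr37l1 (0.95) and Acsbg1 (0.93), both abundant in astrocytes, and Serpini1 to Pkia (0.96) and Dlg1 (0.95), both expressed in neurons. The astrocyte marker list, however, did not rise with Serpine2 (r = -0.34, permutation adjusted p = 0.527). That r was -0.27 on deviations from the group means and 0.093 without the farthest libraries.

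Of 71 other genes of the plasminogen pathway tested on 6 lists, 7 (9.86%) passed the nominal limma threshold in 5EL against EL, where 7.70% of all genes did. Of plasminogen and its other inhibitors, 6 of 10 listed genes were tested in 5EL against EL; 1 was higher, A2m (α2-macroglobulin, 0.34 log2 units), 0 were lower, and the median difference was 0.086. Of receptors that take up Plat, such as Lrp1, 0 of 9 passed. Of urokinase receptor partners 1 of 10 was higher, the collagen receptor Mrc2 (0.24). Among 21 tested substrates of plasmin and Plat, Tgfb1 (0.24) and Lamc1 (0.18) were higher and the neurotrophin Bdnf (-0.25) was lower. Anxa3 (0.22) was the gene past the threshold among 14 annexin and S100 relatives, and 0 of 11 other secreted proteases passed. The adjusted limma p of each gene named from these lists was 0.630.

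With Lilrb4a deletion in amyloid mice, 9 of the 71 pathway genes (12.68%) passed the nominal limma threshold, where 2.49% of all genes did, and they included substrates made in liver. Fibrinogen chains Fga, Fgb and Fgg were higher in 5ELKO than in 5EL by 0.30, 0.31 and 0.25 log2 units (limma adjusted p = 0.443, adjusted p = 0.999 and adjusted p = 0.276), and these were the 3 of 21 substrates past the threshold. Plg, plasminogen itself, was 0.13 higher and past the nominal limma threshold (adjusted p = 0.999). Hepatocyte markers moved in the same comparison, 4 of 5 being higher at a nominal limma p under 0.05. Of these, 2 also passed adjustment: Alb (1.85, limma adjusted p = 0.0208) and Serpina3k (0.68, limma adjusted p = 0.0167). Only 3 of 15743 genes did so in this comparison. Scores of the hepatocyte list spanned 5.54 to 6.85 across 5EL libraries, against 6.05 to 6.64 for 5ELKO. The 6.85 belonged to 5EL replicate 1, a library high in choroid plexus markers. The next highest 5EL score was 5.90, below every 5ELKO score. Fga is on both lists, Ttr also marks choroid plexus, and 5 of 5 hepatocyte markers were above the filter level in every library. The part of hepatocyte markers in the fibrinogen difference was not tested. Egfr (0.18) and Itga5 (0.11) were higher among 10 urokinase receptor partners, and the uptake receptor Mrc1 was lower (-0.26), each with a limma adjusted p of 0.999. Of the other proteases Prss35 was higher (0.14) and Tmprss5 lower (-0.13), and 0 of 14 annexin and S100 relatives passed. In ELKO against EL 2 of 71 (2.82%, against 2.35% of all genes) passed, both substrates; Mmp9 (0.10, limma adjusted p = 0.998) was among them, and 0 genes of the other 5 pathway lists passed.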

How the data were processed

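Thalamic RNA was sequenced as 15 bulk libraries. Per the study's methods, the authors used Trimmomatic 0.39 for trimming and HISAT2 2.2.1 for alignment to GRCm38, counted read pairs per gene name on exons without strand with featureCounts 2.0.3 and used DESeq2 1.38.3 for their own tests. The authors deposited log2 values of 29659 genes per library; the transform and the annotation release are not given in the sources used here. The median SD within groups was 0.0586 for genes with a mean of 3 to 4 and 0.0972 at 9 to 10. With no counts deposited, no count test was run.

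Genes at 3.32 or more in 3 of 15 libraries (4 of 9 for 5ELKO against 5EL, fitted on those 9 libraries) were tested with limma 3.58.1 in R 4.3.3 with a variance trend and Benjamini-Hochberg adjustment; 15804 and 15743 genes passed. Other comparisons used all 15 libraries. The fits were tested on simulated data. P-values measure the spread between these libraries. Exact permutation tests were two-sided; correlations used 100000 permutations, within groups for deviations. Exon lengths and coordinates come from GENCODE M21, a GRCm38 annotation. No pair of the 105 held identical values.

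The members, lists and rules were chosen with earlier results of these data known. Named genes are the 7 members, list genes past a nominal p under 0.05 (up to 5 per list and comparison with the smallest p), and the 5 (Plat) or 2 (others) genes of highest r. Relations to marker lists were added after the values were seen. Deviations of EL and ELKO libraries with the same number went together (r of 0.453, 0.325 and 0.742). Pairing by number rests on these values, as no label states it and libraries of unlike numbers were not compared. What same-numbered libraries share is not given. Other groups did not have such values in every pair. Alternatives were recentring, no filter, a robust or trendless prior, a replicate block, other libraries in the fit, Xist or choroid plexus covariates, and libraries left out. Figures were drawn with matplotlib 3.10.9 in Python 3.11.15. Some genes that the naming rule selects are not reported here.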

Additional observations from a re-analysis of the deposited data

Results flagged for a closer look

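Of 14 checks (7 genes in the groups of 4 and 5 libraries), 1 picked out a distant library; about 1 check in 20 does so by chance. S100a10 in 5EL replicate 3 was at 7.67, and its gap to the next 5EL library was 0.865 of the group's range. ELKO replicate 3, in a group too small for this check, was at 7.65. The cause was not tested.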

How the results depend on the processing

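The transform hides the reads behind each value, groups hold 3 to 5 libraries, and Plaur is low, which limits the sizes given here. Of the members, the number past a nominal limma p under 0.05 in 5EL against EL lay between 1 and 4 with any one library removed. It was 1 without EL replicate 1, 1 without EL replicate 2 and 0 with the replicate block, which uses fewer libraries. Those fits called 20.2%, 6.29% and 6.42% of all genes, against 7.70% in the main fit. In 5ELKO against 5EL the number of members was 1 in each of the 9 fits without a library, which called 2.04% to 3.34% of all genes. In ELKO against EL the number of members ran from 0 to 2 with any one library removed. It was 1 without EL replicate 1 (Serpini1) and 2 without ELKO replicate 3 (Anxa2 and Serpini1). Those fits called 11.6% and 8.72% of all genes, against 2.35% in the main fit. It was 3 with the replicate block, where 7.06% of all genes were called. Without the 4 libraries that stand apart S100a10 was 0.48, and the lone ELKO library there is assumed to vary like the others. In 5EL against EL, S100a10 was 0.24 without those 4. It was past the nominal threshold without ELKO replicate 3 (0.18), in a fit that called 9.20% of all genes. Without those 4 the Plat amyloid-by-deletion difference was 0.19, and without one library it was 0.088 to 0.16. Signs turned for small differences. In 5EL against EL without EL replicate 3, Anxa2 was -0.025 (-0.025 to 0.13 over single libraries left out) and Serpine2 0.026 (-0.19 to 0.026). In 5ELKO against 5EL, Plau was 0.0046 without 5EL replicate 1 (also without the 4 libraries) and 0.017 without 5ELKO replicate 3 (-0.096 to 0.017), Plaur was 0.0046 with the Xist covariate (Xist was at most 0.31 everywhere and highest in 5ELKO replicate 3) and 0.015 without 5ELKO replicate 3 (-0.070 to 0.015), and S100a10 was 0.024 without 5EL replicate 3 (-0.070 to 0.024). In ELKO against EL, Plaur was 0.0016 with the choroid plexus covariate, 0.014 without EL replicate 3 and 0.0015 without ELKO replicate 2 (-0.035 to 0.014), and Anxa2 was -0.019 without the 4 libraries. On deviations from group means r was -0.0020 for Anxa2 and S100a10, 0.20 for Plat and Serpine2, -0.034 for Plat and Serpini1, -0.031 for Plat and Anxa2 and 0.36 for Plau and Plaur (permutation p = 0.355), which had 0.49 without the 4 libraries (permutation p = 0.127). The cause was not tested. The replicate block changed no other call than those named here and beside the results: in 5EL against EL it gave Plat 0.12, Plaur 0.10 and Serpini1 0.40, none past the nominal limma threshold (adjusted p = 0.639), and these groups' numbers did not pair in every case (r of 0.0538, 0.228 and 0.189). Of 860 alternative values, 785 kept their sign and their side of the threshold or stayed within the spread, and 17 others stayed within it or on the same side with the sign turned.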

Other observations

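Plat is known as a gene that neurons induce with activity, so a list of activity-regulated genes was also counted. Of 11 tested, 1 was higher in 5EL than in EL, Junb (0.34 log2 units, past the nominal limma threshold, adjusted p = 0.630), and the median difference was 0.075. In 5ELKO against 5EL 1 of 11 was lower, again Junb (-0.25, limma adjusted p = 0.999), and in ELKO against EL 0 of 11 passed the nominal limma threshold. The scores of the list overlapped between all groups, at 7.06 to 7.37 in EL, 7.13 to 7.49 in 5EL, 7.07 to 7.35 in ELKO and 7.11 to 7.37 in 5ELKO.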
